A study of Mus musculus with 6 samples.

Results

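The 10 genes described here encode the FOS family (Fos, Fosb, Fosl1, Fosl2), the JUN family (Jun, Junb, Jund) and the zinc-finger factors Egr1, Egr2 and Egr3. They were found by symbol among the 46603 genes of an RNA-seq data set on embryonic fibroblasts of the mouse (MEFs), connective tissue cells grown out of embryos, and all 10 were found. Both groups came from BALB/c embryos at day 10.5. The KO group (3 libraries) lacked both alleles of beta-actin, the gene Actb, and the WT group (3 libraries) was wild-type. Both groups were grown in high-glucose DMEM with fetal bovine serum and then kept for 6 days in the same medium with insulin, dexamethasone, IBMX (a phosphodiesterase inhibitor that raises cAMP) and ascorbic acid, a mixture that drives adipocyte differentiation. The labels do not say how many lines or embryos each group came from, so the p-values measure only the spread between these libraries, which may be technical. The series has no library from before induction and none taken within hours of it.

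FOS and JUN proteins pair through leucine zippers to form the transcription factor AP-1, which binds the DNA sequence TGACTCA and relatives of it. JUN proteins can pair with each other, whereas FOS proteins need a JUN partner. Egr1, Egr2 and Egr3 bind a GC-rich element and switch on, among others, the co-repressors that restrain them. Most of these genes are immediate early genes: serum, growth factors, cAMP or stress switch on their transcription within minutes, through the serum response factor SRF with its ternary complex partners and through CREB, and their messages decay fast. Jund and, in many fibroblasts, Fosl1 and Fosl2 are expressed more steadily. SRF is also driven by MRTF, a cofactor held back by unpolymerised actin.

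Between 26955708 and 38619711 counts were obtained per library and Actb was 1875 ± 47.9 CPM (counts scaled to library size with TMM) in WT and 39.9 ± 25.9 in KO (SD, n = 3). Of 10 fibroblast markers Fn1, Vim and Col1a1 were abundant in all 6 libraries, whereas Col1a2 (6 to 13 counts), Lum (2 to 20) and Thy1 (0 to 1) were near absent in WT. Their sum, mostly Fn1, was 2974 to 3738 CPM in WT and 6852 to 9386 in KO, with 7 of 10 higher. Markers that define macrophages (Ptprc, Adgre1, Itgam), adipocytes (Adipoq, Lep) or muscle (Myod1, Myog) were at 0 to 3 counts in every library. Others of those lists were not: Cidec had 45 counts in KO replicate 3 and 0 to 3 elsewhere, Retn 6 to 21, Cd68 72 to 601 and Cd14 203 to 1022. Of 5 epithelial markers Krt18 and Krt19 were higher and Epcam lower in KO, and their sum was 5.03 to 10.2 CPM in WT and 30.3 to 50.6 in KO. The summed level of 5 neuron markers was 63.1 to 70 CPM in WT and 120 to 145 in KO, of 5 muscle markers 12.7 to 20.8 and 29.6 to 48.4, of 5 endothelial markers 2.83 to 3.48 and 1.78 to 3.46, and of 6 macrophage markers 17.7 to 35.7 and 20.4 to 30.4. Several of these marker sums differed between the genotypes, and their part in the results was not tested. KO replicate 1 stood apart, with the fewest genes that had a count (20870, against 21446 to 22198) and the highest sum of 6 adipocyte markers, nearly all of it Fabp4 (109.9 CPM, against 5.03 to 18.1 in the other libraries) and each tested member's fold change is also given without it. In bulk RNA, fewer expressing cells and less RNA per cell cannot be told apart.

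Fos, Jun, Junb and Fosl2 ranked the KO libraries in the same order. Egr2 ranked them in another order, as did Fosb, Fosl1, Jund, Egr1 and Egr3. The 120 bases before the RefSeq start (GRCm38.p6) are shown for Fos, Jun, Junb and Egr2, 5′ to 3′. They are not shown for Fosl2, where they overlap an exon of the gene and hold only the EGR element searched for below. No link between these sequences and the order of the KO libraries was tested. Capitals mark matches on either strand to the core of the cAMP response element, to the AP-1-like site of the Jun promoter, or to the CArG box, the element bound by SRF.
Fos, chr12:85473770-85473889, plus strand: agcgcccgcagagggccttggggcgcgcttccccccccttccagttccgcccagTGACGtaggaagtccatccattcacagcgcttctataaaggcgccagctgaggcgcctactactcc
Jun, chr4:95052223-95052342, minus strand: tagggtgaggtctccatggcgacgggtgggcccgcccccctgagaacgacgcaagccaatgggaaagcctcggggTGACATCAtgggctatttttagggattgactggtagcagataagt
Junb, chr8:84978749-84978868, minus strand: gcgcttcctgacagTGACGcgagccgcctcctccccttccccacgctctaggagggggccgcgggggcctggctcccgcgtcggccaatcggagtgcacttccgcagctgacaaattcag
Egr2, chr10:67537749-67537868, plus strand: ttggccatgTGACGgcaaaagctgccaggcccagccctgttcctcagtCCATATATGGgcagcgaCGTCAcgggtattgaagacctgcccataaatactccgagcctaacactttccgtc

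Over the 250 bases before each start, 7 members had a RefSeq window that was searched. Egr1, Egr3 and Fosl1 were not searched, so nothing below covers their promoters. The core TGACG lay in the windows of Fos, Fosb, Junb and Egr2, and in 17.8% of all 32851 windows. The AP-1-like sequence TGACATCA lay in that of Jun, and in 2.93% of all windows. A CArG box was matched in windows of Egr2, which has several annotated starts, and in 1.47% of all windows. Egr2 counted as matched if any of its windows matched, whereas the percentages here are per single window, so they are not like measures. The EGR element GCGNGGGCG lay in those of Fosb and Fosl2, and in 4.70% of all windows. Neither the full cAMP element TGACGTCA (1.55% of all windows), which contains the core, nor the AP-1 site TGACTCA (4.46%) was matched in a member's searched window. For Jund, which had no match, the window ended at base 70697738, upstream of and not adjoining the gene start of 70698949 given below. The Egr2 stretch shown lies inside the gene, which is annotated from base 67535475. The Egr2 window nearest that base, ending at 67535498, held no match. A match is a run of letters and says nothing of binding, and elements farther upstream were not searched.

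After 6 days in the medium, loss of beta-actin went with a lower level of Jund and with no called change in the other tested members. Of the 10 members 9 had counts enough for edgeR's quasi-likelihood test, and with Benjamini-Hochberg adjustment 0 rose and 1 fell at the 0.05 threshold. DESeq2 and limma-voom gave the same counts, and before adjustment too only Jund was under 0.05, against 40.9% of all genes. Over all 15009 genes tested, 28.3% were called, 13.8% higher and 14.5% lower, so 1 of 9 is below the background share. The median log2 fold change, KO over WT, was 0.04 over the 9 members and 0.01 over all tested genes. KO and WT values did not overlap for 2 members, Jun and Jund, against 49.6% of all tested genes.

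**Figure D1:**
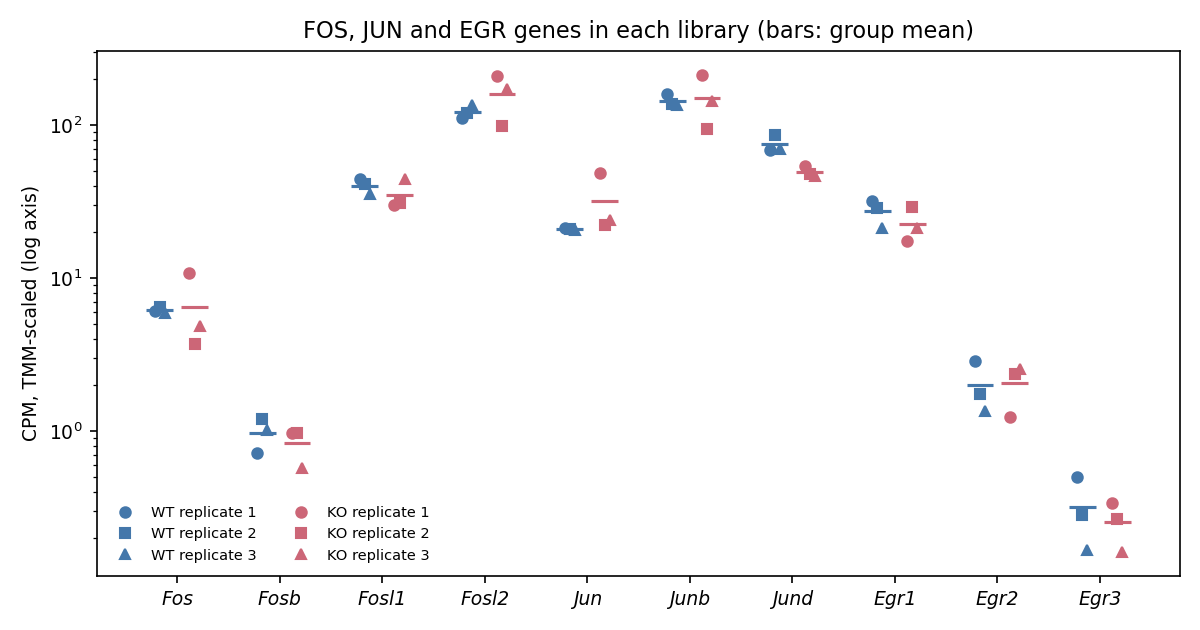
Level of each member in each library, as CPM on a log axis, with WT in blue, KO in red, the replicate number as the symbol and a bar at the group mean. Jund lies lower in all 3 KO libraries, and KO replicate 1 is the highest point of Fos, Fosl2, Jun and Junb.

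Jund (ENSMUSG00000071076, chromosome 8, 70698949 to 70700616, GRCm38) encodes the JUN protein that is made most steadily and that slows proliferation in fibroblasts. Its level was 68.5, 86.3 and 69.6 CPM in WT replicates 1, 2 and 3 and 54.1, 47.8 and 46.1 CPM in KO. Every KO library was below every WT library, and WT replicate 2 stood above the other two WT libraries. The log2 fold change was -0.60 (95% interval -0.91 to -0.29, edgeR adjusted p = 0.0143), or 1.51-fold lower. Without KO replicate 1 it was -0.67 (edgeR adjusted p = 0.00306). The call was lost without WT replicate 2 (-0.49, edgeR adjusted p = 0.0668, with 14.9% of all genes called) and when KO replicate 3 was dropped (-0.55, adjusted p = 0.0555, with 20.7% called). It held without WT replicate 1 (17.2% of genes called) or 3 (18.4%) and with library totals as the scaling (31.3%). It was also lost with a correction for GC content (-0.24, edgeR adjusted p = 0.557, with 18.9% of all genes called). Jund is GC-rich, with 67.1% G and C in its transcript, and the median log2 fold change of the 57 tested genes with 65% to 70% was -0.25, against 0.26 for genes under 40%.

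Jun (ENSMUSG00000052684, chromosome 4, 95049034 to 95052222), the founding member of its family and the usual partner of Fos, was 21.4, 21.0 and 20.6 CPM in WT and 48.9, 22.1 and 24 in KO. The WT libraries were almost equal, and KO replicate 1 was far above the other two KO libraries, which lay just above WT. The log2 fold change of 0.59 was not called (95% interval -0.10 to 1.28, edgeR adjusted p = 0.175), and without KO replicate 1 it was 0.14 (adjusted p = 0.301). Junb (ENSMUSG00000052837, chromosome 8, 84974484 to 84978718), which activates fewer AP-1 genes than Jun and can restrain it, was 158, 137 and 136 CPM in WT and 213, 93.9 and 143 in KO. The KO values lay on both sides of WT. Its log2 fold change was 0.06 (95% interval -0.56 to 0.68, edgeR adjusted p = 0.886), and -0.28 without KO replicate 1 (adjusted p = 0.228).

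Fos (ENSMUSG00000021250, chromosome 12, 85473890 to 85477273), the classic immediate early gene, was at 6.13, 6.47 and 5.94 CPM in WT, from 206 counts or fewer in each library. In KO it was 10.7, 3.71 and 4.84 CPM. KO replicate 1 was above all WT libraries and the other two were below all of them. The log2 fold change over all libraries was 0.05 (95% interval -0.84 to 0.95, edgeR adjusted p = 0.933). Without KO replicate 1 it was -0.53 and just passed (edgeR adjusted p = 0.0485), in a fit where 42.3% of all genes were called. Fosb (ENSMUSG00000003545, chromosome 7, 19302696 to 19310051), a relative with the same strong activation domain, was near 1 CPM, from only 23, 38 and 30 counts (WT) or 26, 33 and 21 counts (KO) per library. The groups overlapped, and its log2 fold change was -0.22 (95% interval -1.04 to 0.60, edgeR adjusted p = 0.671), or -0.34 without KO replicate 1.

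Fosl1 and Fosl2 encode FRA1 and FRA2, FOS proteins without the strong activation domain of Fos. Fosl1 (ENSMUSG00000024912, chromosome 19, 5447547 to 5455946) was 44.0, 41.0 and 35.2 CPM in WT and 30.1, 31.0 and 44.1 in KO. KO replicates 1 and 2 were below WT and KO replicate 3 level with the highest WT library (log2 fold change -0.19, 95% interval -0.61 to 0.23, edgeR adjusted p = 0.456, or -0.09 without KO replicate 1). Fosl2 (ENSMUSG00000029135, chromosome 5, 32135801 to 32157842) was 110, 119 and 136 CPM in WT and 209, 98.7 and 171 in KO. Here KO replicates 1 and 3 were above WT and KO replicate 2 below it. The log2 fold change of 0.39 was not called (95% interval -0.20 to 0.98, edgeR adjusted p = 0.286). Without KO replicate 1 it was 0.15 (adjusted p = 0.596). It was called without KO replicate 2 (0.65, adjusted p = 0.0251, with 24.7% of all genes called in that fit).

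Egr1 (ENSMUSG00000038418, chromosome 18, 34859823 to 34864984), which serum and growth factors induce along with Fos, was 31.9, 28.6 and 21.2 CPM in WT and 17.5, 28.9 and 21.2 in KO. The ranges overlapped and KO replicate 1 was the lowest of the 6 libraries (log2 fold change -0.27, 95% interval -0.81 to 0.26, edgeR adjusted p = 0.408, or -0.12 without KO replicate 1). Egr2 (ENSMUSG00000037868, chromosome 10, 67535475 to 67542188), known also for its role early in adipogenesis and in myelinating cells, was 2.89, 1.76 and 1.35 CPM in WT and 1.24, 2.37 and 2.56 in KO. It too was lowest in KO replicate 1, and the log2 fold change was 0.04 (95% interval -0.88 to 0.97, edgeR adjusted p = 0.944), or 0.30 without KO replicate 1. Egr3 (ENSMUSG00000033730, chromosome 14, 70077203 to 70082614) held 16, 9 and 5 counts in the WT libraries, against 9, 9 and 6 in the KO libraries, too few to be tested.

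For the 8 members that were not called, the intervals do not show equal levels. That of Fosl1, the narrowest, ran from -0.61 to 0.23, and those of Fos and Egr2 from -0.84 to 0.95 and from -0.88 to 0.97.

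**Figure D2:**
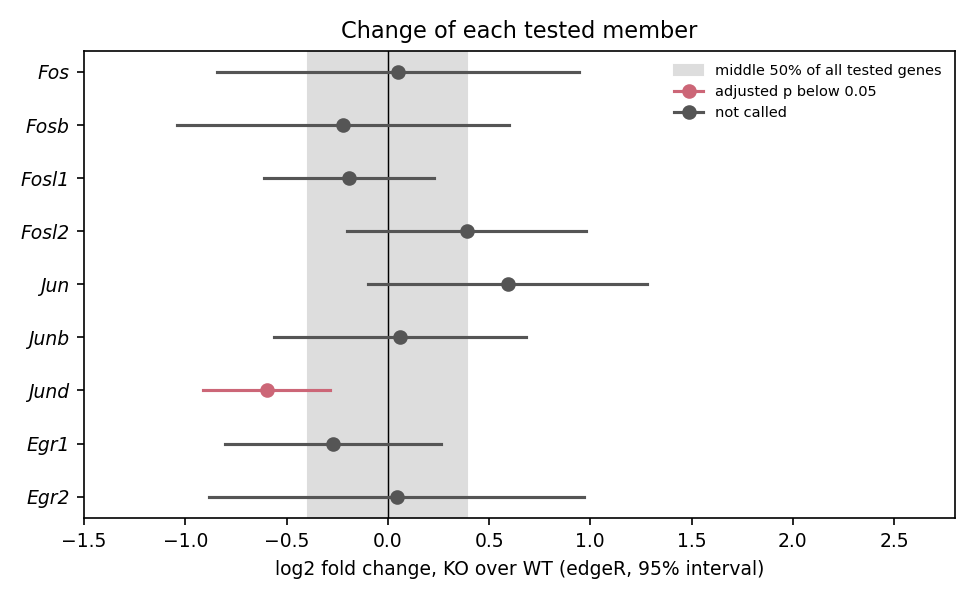
Log2 fold change of each tested member, KO over WT, with an approximate 95% interval computed from the edgeR fit. The middle 50% of all tested genes is shaded (-0.39 to 0.39). The interval of Jund lies below 0 and the intervals of the other 8 cross 0.

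Levels can be compared between genes only per length of exon, and on that scale (CPM per kb) the JUN family was the most abundant of the 3. In WT the order was Junb at 62.5 ± 5.48 CPM per kb, Jund at 44.8 ± 5.98, Fosl1 at 19.7 ± 2.20, Fosl2 at 12.6 ± 1.33, Jun at 6.58 ± 0.13, Egr1 at 6.07 ± 1.22, Fos at 2.63 ± 0.11, Egr2 at 0.589 ± 0.235, Fosb at 0.156 ± 0.038 and Egr3 at 0.0722 ± 0.0385 (SD, n = 3). Of neighbours in this order only Jun and Egr1 overlapped across the WT libraries. With the length of the longest transcript Fosl1 and Fosl2 overlapped there too (1864 and 6537 bases, against 2033 and 9680 of exon). In KO the range of Fosl2, 10.2 to 21.6 CPM per kb, overlapped those of Fosl1, 14.8 to 21.7, and Jun, 6.92 to 15.3. The KO ranges of Fosl1 and Jun also overlapped each other. That of Fos, 1.58 to 4.57, overlapped that of Egr1, 3.90 to 6.45. The message of Fos itself was a small part of its family's in both genotypes.

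These levels depend on exons that 4 members share with a neighbour on the other strand, since the library kit does not mark strand. The shared part is 877 of 1668 exon bases of Jund (with Gm11175), 1163 of 2033 of Fosl1 (with Ccdc85b), 232 of 3189 of Jun (with Junos) and 173 of 2301 of Junb (with Prdx2). Reads there may have been left uncounted or given to the neighbour. Gm11175 had 0 counts in all 6 libraries. Ccdc85b was called higher in KO (0.70 log2, edgeR adjusted p = 0.00282) and so was Junos (1.79, adjusted p = 0.0128). No reads were recounted, but the same counts were divided by only the exon bases outside other genes, as if no read from shared bases had been counted. Jund then came to 94.5 ± 12.6 CPM per kb in WT and 62.4 ± 5.32 in KO. Junb came to 67.6 ± 5.92 and 70.5 ± 28.1, so under that assumption Jund stood above Junb in WT. On that scale Fosl1 was 46.1 ± 5.14 and 40.3 ± 8.97 CPM per kb.

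The sum of the 4 FOS genes was 35.1 ± 0.93 CPM per kb in WT and 36.6 ± 8.14 in KO (SD, n = 3, exact permutation test, two-sided, p = 1.0). For the 3 JUN genes it was 114 ± 5.84 and 105 ± 32.6 (exact permutation p = 0.6), and for the 3 EGR genes 6.73 ± 1.47 and 5.69 ± 1.44 (exact permutation p = 0.5). None of the 3 sums differed beyond the spread between libraries, and the smallest p that 3 against 3 allows is 0.1.

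Within the JUN family, Jun made up 5.75%, 5.58% and 6.01% of the summed CPM per kb in WT and 10.9%, 9.05% and 7.72% in KO. All 3 KO libraries were above all 3 WT libraries, and the exact permutation p was 0.1, the smallest possible. Jund went from 39.3% ± 4.34 to 29.7% ± 7.30 (exact permutation p = 0.2) and Junb from 54.9% ± 4.24 to 61.1% ± 6.73 (exact permutation p = 0.3), both with overlapping groups. With only the unshared exon bases as the length, under the same assumption, Jund made up 55.7% ± 4.47 in WT and 44.8% ± 8.57 in KO. The shares of 1 family sum to 100%, so they do not move independently.

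In the FOS family Fosl1 and Fosl2 together made up most of the message. Fosl1 was 56.1% ± 4.86 of the sum in WT and 48.1% ± 10.7 in KO (exact permutation p = 0.4), and Fosl2 35.9% ± 4.77 and 44.2% ± 7.62 (exact permutation p = 0.2). With the full exon length Fosl2 reached 52.5% and Fosl1 36% in KO replicate 1, the reverse of their order in the other 5 libraries. With the length of the longest transcript (6537 bases for Fosl2, 1864 for Fosl1) Fosl2 also exceeded Fosl1 in WT replicate 3 and KO replicate 3. With only the unshared exon bases as the length Fosl1 stayed above Fosl2 in KO replicate 1 (56.8% and 35.4%). The WT shares were then 74.8% for Fosl1, 20.6% for Fosl2 and 4.29% for Fos. Fos was 7.49% ± 0.25 in WT, and its 3 KO values were 11.1%, 5.79% and 4.96%. Egr1 was 90.4% ± 2.04 of the EGR sum in WT and 88.3% ± 2.29 in KO (exact permutation p = 0.3).

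**Figure D3:**
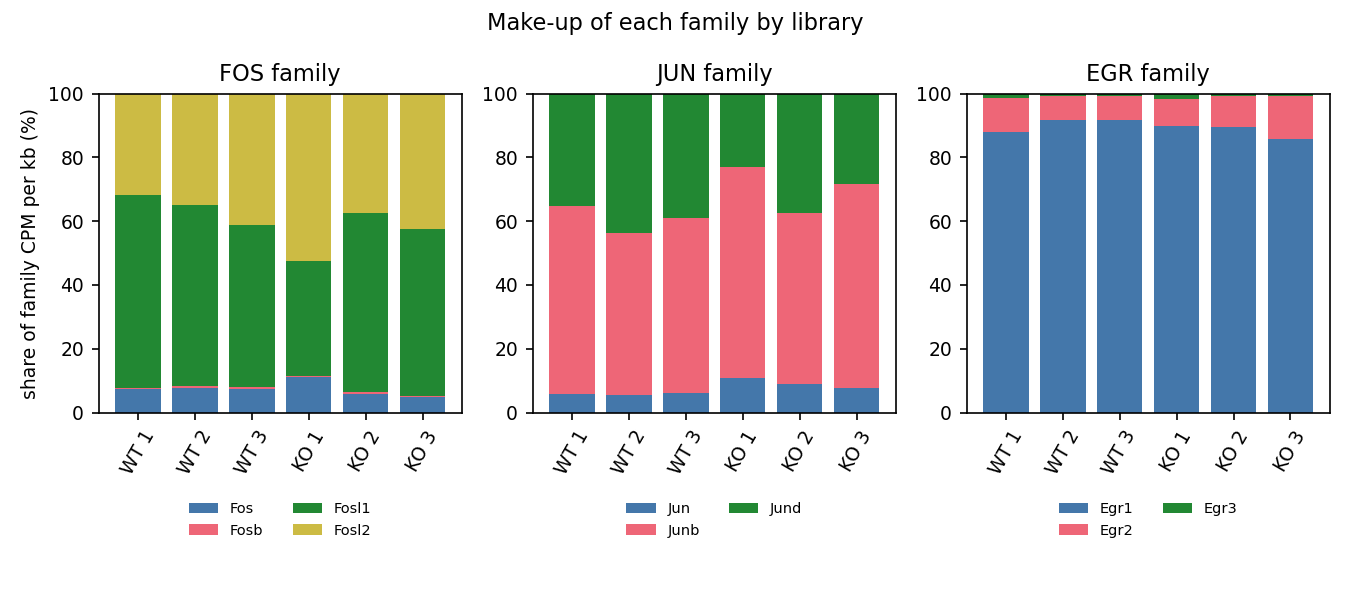
Share of each member in the summed CPM per kb of its family, in percent, stacked for each library. The Jun share is 5.58% to 6.01% in WT and 7.72% to 10.9% in KO. With the full exon length drawn here Fosl2 exceeds Fosl1 in KO replicate 1 only. With unshared exon bases as the length it does not do so there (35.4% and 56.8%). With the longest transcript as the length it also does so in WT replicate 3 and KO replicate 3.

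The KO libraries differed more among themselves than the WT libraries. The SD of log2 CPM was larger in KO for 8 of the 9 tested members, and for 72.8% of 12961 genes whose WT and KO mean CPM sum above 2. It was 0.06 in WT and 0.79 in KO for Fos, 0.03 and 0.63 for Jun, 0.12 and 0.59 for Junb and 0.15 and 0.56 for Fosl2. The median gene had 0.13 in WT and 0.26 in KO. Among the 9 tested members Jund, the called one, was the only one with a smaller SD in KO (0.12) than in WT (0.19).

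Fos, Jun, Junb and Fosl2 were highest in KO replicate 1, between 0.46 and 0.88 log2 above their KO mean, and lowest in KO replicate 2, at -0.63 to -0.42 log2. Fosl1, Egr1 and Egr2 were lowest in KO replicate 1, at -0.20, -0.33 and -0.62 log2. In all, 5 of the 9 tested members (55.6%) were highest in KO replicate 1 among the KO libraries and 3 were lowest. Of 36 other immediate early genes, all of which were tested, 27 (75%) were highest in KO replicate 1 among the KO libraries, against 44.1% of all tested genes. Their median deviation there was 0.31 log2. The largest, named after their values were seen, were Ccn1, a secreted matrix protein and SRF and YAP target (1283 CPM in KO replicate 1, 186 and 145 in the other two, 107 to 143 in WT), and the kinase Pim1 (81.6, then 14.5 and 16.8, and 14.4 to 15.9 in WT). The exceptions included Ier2, at 33.2 CPM in KO replicate 1 and 42.2 to 59.2 elsewhere, and Rhob, at 15.0 and 21.3 to 34.0. The part of the other features of KO replicate 1 in this pattern was not tested.

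**Figure D4:**
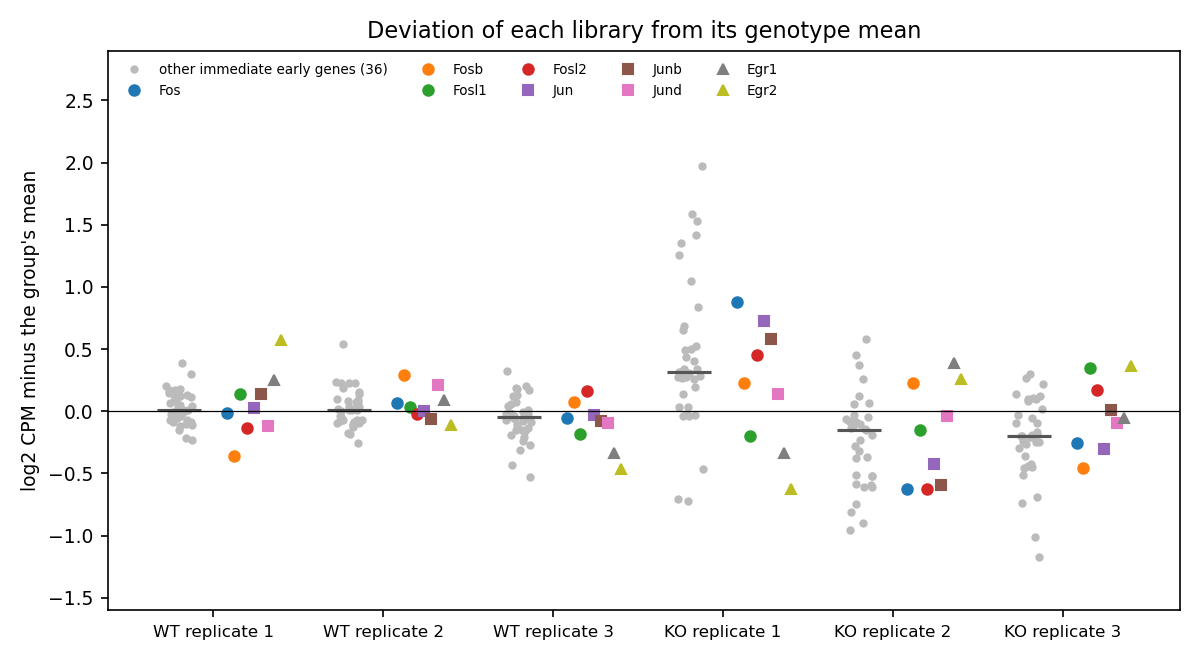
Log2 CPM of each gene minus the mean of its own genotype, for the 9 tested members (coloured) and 36 other immediate early genes (grey, with the median as a line), in each library. The grey median is between -0.05 and 0.01 in the WT libraries and 0.31 in KO replicate 1, with Fos, Jun, Junb and Fosl2 above it and Fosl1, Egr1 and Egr2 below 0.

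By likeness over the 6 libraries (Pearson r of log2 CPM, as a description over 10323 genes), the nearest genes to Fos were Mrs2, Wrnip1 and Itpka, with r from 0.996 to 0.999. Those nearest to Junb were Eif4ebp1, Eif2d and Taf5l (0.979 to 0.986), to Fosl1 Tmppe, Stoml2 and Alg9 (0.964 to 0.992), and to Egr1 Nsmce3, Haus8 and Mrps12 (0.971 to 0.987). The members' own values over the same 6 libraries define this likeness, and none of the 12 is an immediate early gene of the list.

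Among the other immediate early genes, 9 rose, 3 fell and 24 were not called of 36 (median 0.43 log2), beside 13.8% higher and 14.5% lower over all genes. With library totals 6 were higher and 5 lower. Gem, a small GTPase, rose from 20.6 ± 1.40 to 80.9 ± 25.8 CPM (log2 fold change 1.97, edgeR adjusted p = 0.00109). Trib1, a pseudokinase, rose by 1.34 log2 and Sik1, a CREB-induced kinase that feeds back on CREB signalling, by 1.02 (edgeR adjusted p = 0.00222 and 0.00859). Btg2, an antiproliferative gene and p53 target, fell from 59.4 ± 1.77 to 28.2 ± 9.25 CPM (-1.08 log2, edgeR adjusted p = 0.0106). Without KO replicate 1 the counts were 13 higher and 8 lower, and without WT replicate 1, 2 or 3 they were 4 and 1, 4 and 1, and 4 and 3. Of all genes 42.3% were called without KO replicate 1, and 17.2%, 14.9% and 18.4% without WT replicate 1, 2 and 3. The share was 24.7% without KO replicate 2, 20.7% without KO replicate 3, 31.3% with library totals and 18.9% with the GC correction. Counts for the lists below are to be read beside these shares.

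In the list of SRF, its ternary complex factors and MRTFs, 2 of 8 tested rose and 0 fell, beside 28.3% of all genes called. Srf itself was 80.9 ± 4.07 CPM in WT and 127 ± 29.9 in KO (0.65 log2, edgeR adjusted p = 0.0262), and Fhl2, a LIM-domain cofactor and SRF target, rose by 1.52 log2 (adjusted p = 0.00184). Srf lost its call when WT replicate 1, 2 or 3 was dropped (adjusted p = 0.0994, 0.0877 and 0.0792), and with library totals (0.0604). Elk1, Elk3 and Elk4, which bind SRF at the Fos and Egr1 promoters, were not called (0.15, -0.19 and 0.10 log2), nor were Mrtfa and Mrtfb (0.31 and 0.35). In the CREB list 1 of 10 rose, Prkacb, a catalytic subunit of protein kinase A (0.61 log2, edgeR adjusted p = 0.0103, or 0.062 without WT replicate 2), and 0 fell. With library totals 1 was higher and 2 lower, and without KO replicate 1 these were 1 and 1.

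Of 22 tested MAP kinases and their activators 2 rose and 3 fell, beside 28.3% of all genes called. Mapk13 and Mapk12, p38 delta and gamma, fell by 4.69 and 1.36 log2 (edgeR adjusted p = 0.000234 and 0.000789), Mapk13 from 94 to 126 counts in WT to 3 to 5 in KO. Map2k6, which activates p38, rose by 1.05 log2 (edgeR adjusted p = 0.0119, or 0.0578 without WT replicate 2). The ERK kinase Mapk3 and the JNK kinases Mapk8 and Mapk9, which act on Fos, Elk and Jun proteins, had log2 fold changes of -0.02, -0.13 and -0.14 and were not called. Without WT replicate 1 the counts were 1 higher and 2 lower, without WT replicate 2 they were 0 and 2, and without KO replicate 1 they were 4 and 4.

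Of 16 brakes on MAP kinase signalling 3 rose, 3 fell and 10 were not called, beside 28.3% of all genes called. Spry1, an inhibitor of growth factor signalling, fell by 1.06 log2 (edgeR adjusted p = 0.00658), and 710 of its exon bases are shared with Gm42922. The ERK phosphatase Dusp5 rose by 0.81 and Spred3 by 0.89 log2 (adjusted p = 0.00702 and 0.0158). Spred3, which shares 202 exon bases with Ggn, lost its call when WT replicate 1 (0.0712), 2 (0.0668) or KO replicate 3 (0.0551) was dropped. Dropping WT replicate 1 or 2 left 1 higher and 1 lower brake, dropping WT replicate 3 left 2 and 1, and dropping KO replicate 3 left 1 and 2. Dusp1, which inactivates p38 and JNK, was 35.8, 43.6 and 33.5 CPM in WT and 154, 44.2 and 45.2 in KO, with KO replicate 1 alone far above WT (edgeR adjusted p = 0.121).

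Among other partners of AP-1 proteins 0 of 10 tested rose and 2 fell, beside 28.3% of all genes called. Atf3, a stress-induced partner of JUN proteins, fell from 29.2, 37.7 and 42.5 CPM in WT to 19.8, 10.6 and 8.95 in KO (-1.48 log2, edgeR adjusted p = 0.0109), and the groups did not overlap. Its call held with each library left out in turn. Mafg, a small MAF protein, was -0.33 log2 (adjusted p = 0.0434) and lost its call without each single library except KO replicate 1 (adjusted p from 0.106 to 0.148) and with the GC correction (0.692). Mafg shares 124 exon bases with Sirt7. Without KO replicate 1 the list had 4 lower genes, and with any single WT replicate or KO replicate 3 dropped it had 1. Of the EGR co-repressors Nab1 rose by 0.66 log2 (edgeR adjusted p = 0.00522, or 0.0755 with the GC correction), and Nab2, itself an Egr1 target, was at -0.08. Nab2 has 2941 exon bases and shares 1241, summed over partners, with Stat6, Gm16229 and Nemp1 on the other strand. Wt1, a relative of EGR in its zinc fingers, rose by 3.99 log2, from 0.680 ± 0.557 to 10.8 ± 5.06 CPM (adjusted p = 0.00366), and Egr4 had too few counts to be tested.

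Of 22 tested genes known as AP-1 targets, 4 rose, 2 fell and 16 were not called. That is close to the background share of 28.3% of all genes called. Mmp3, stromelysin, rose from 1.45, 0.283 and 0.540 CPM in WT to 83.3, 94.5 and 30.2 in KO (6.51 log2, edgeR adjusted p = 0.000581). The cytokine Lif and the chromatin protein Hmga1 fell by 1.96 and 1.06 log2 (adjusted p = 0.00133 and 0.00599), and 102 exon bases of Hmga1 are shared with AI413582. The collagenase Mmp13 was 10.4 CPM in KO replicate 1 and at most 1.67 in the other 5 libraries, and was not called. Dropping any single WT replicate or KO replicate 3, or scaling by library totals, left 1 higher and 2 lower genes.

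Of 14 EGR targets, 6 of which stand in another list, 2 rose and 1 fell, beside 28.3% of all genes called. F3, tissue factor, rose from 30.7 ± 3.09 to 251 ± 172 CPM (3.03 log2, edgeR adjusted p = 0.00276), with 447 CPM in KO replicate 1 and 177 and 128 in the other two. Thbs1, thrombospondin, rose by 1.64 log2 (adjusted p = 0.0239, or 0.0974 and 0.0955 without WT replicate 1 or 2), and shares 208 exon bases with Gm29233. Icam1, an adhesion molecule, fell, with 77, 82 and 56 counts in the WT libraries against 2, 5 and 0 in the KO libraries (-4.91 log2, adjusted p = 0.0016). Without KO replicate 2 and with the GC correction 4 were higher and 1 lower. Of 7 genes that act in the turnover of JUN and FOS proteins, the ubiquitin ligase Cop1 rose by 0.61 log2 (edgeR adjusted p = 0.029) and 6 were not called. Cop1 lost its call when WT replicate 1, 2 or 3 was dropped (0.105, 0.114 and 0.0653) and with the GC correction (0.189). Of this list 0 were higher and 2 lower with library totals, and 1 and 2 without KO replicate 1.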

How the data were processed

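The authors deposited 1 table of unnormalised counts by Ensembl gene for every library. Of tools, TopHat2 2.1.0, HTSeq and DESeq2 appear in the submitters' processing notes, along with the build GRCm38.p4. Neither the annotation release nor the strand setting is given in the sources used here, and the labels name TruSeq RNA Library Prep Kit v2. Of 46603 identifiers 46005 matched GENCODE M21 (GRCm38) by Ensembl identifier, which gave symbols, positions, exon lengths and GC content (longest transcript). Promoter sequences are RefSeq's. In R 4.3.3, edgeR 4.0.16 was run with filterByExpr, TMM scaling and the quasi-likelihood F test (two-sided, group as the only term, Benjamini-Hochberg over all tested genes, threshold 0.05). The fit was tested on simulated data. It called 63 of 100 genes given a true change of 1 log2, 100 of 100 given 2 log2, and 12 of 14554 given none. The changed genes were drawn only from genes above the levels of Fosb and Egr2. Both groups were simulated with the same spread for a gene, whereas the median SD of log2 CPM was 0.13 in WT and 0.26 in KO. Only 100 genes of each size were changed among 15009, whereas 28.3% of genes were called in the data. The simulated rates therefore need not hold for these data. The 95% intervals are approximate, computed from each log2 fold change, its F statistic and a t quantile, since the edgeR test gives none. Family sums and shares were compared by exact permutation of libraries. Library totals were 26955708 to 38619711, so 3 counts, the upper limit where none was seen, equal 0.0816 to 0.113 TMM-scaled CPM (counting error only).

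Alternatives were scaling by RLE, the upper quartile or library totals, limma-voom (limma 3.58.1), DESeq2 1.42.0, other filters, leaving out the 10 most abundant genes, a block for replicate number, a per-library GC offset, each library left out and, for families, other lengths. The members and lists were chosen with earlier results of these data known. The text names all members, from each pathway list the 3 called genes with the smallest p and 1 in the other direction, and for 4 members the 3 most alike genes. Other genes named, such as Elk1, Mapk3, Dusp1, Nab2 and Mmp13, were chosen by role or after their values were seen.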

Additional observations from a re-analysis of the deposited data

How the results depend on the processing

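Jund was lower in KO under all 16 alternatives and called in 13. The number of members called was 1 in the main fit, 0 with the GC offset and 0 to 2 with each library left out, and 1 in the other alternatives. Over all genes 4255 were called, and 2298 to 6537 with each library left out. With library totals the median of all tested genes shifted to -0.19, and the calls were 1351 higher and 3347 lower, against 2074 and 2181. With upper-quartile scaling they were 1848 and 2403, and with the GC offset 1587 and 1251. Small differences changed sign and the cause was not tested. Fos turned to -0.023 with upper-quartile scaling, -0.18 with library totals, -0.14 with limma-voom and -0.095 with the replicate block, and ran from -0.53 to 0.33 with a library left out. Junb turned to -0.0090, -0.16, -0.015 and -0.013 under the same 4, and ran from -0.28 to 0.31. Egr2 turned to -0.0032 and -0.14 with upper-quartile scaling and library totals and ran from -0.17 to 0.40. Fosb ran from -0.40 to 0.0055, and Fosl1 was 0.13 with the GC offset. The FOS family sum (log2 difference 0.035) was -0.17 with library totals and -0.059 with unshared exon bases, and ran from -0.069 to 0.24. The JUN sum ran from -0.40 to 0.039. The share of Egr3 differed by -0.27 to 0.28 percentage points, that of Fos by -2.12 to 0.96 (0.29 with unshared exon bases) and that of Fosb by -0.15 to 0.032. With the replicate number as a block 3045 genes were called, and Jund kept its call (-0.59, edgeR adjusted p = 0.0442). Equally numbered KO and WT libraries deviated from their means with correlations across genes of -0.101, 0.046 and -0.148. These show no strong shared shift, and cannot tell whether equally numbered cultures were handled together. The lengths outside other genes' exons were added after seeing the data. Groups of 3 are too small for Dixon's test of single outlying values, and the counts of Egr3 and Fosb limit what can be seen there.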
